A study of Mus musculus with 18 samples.

Results

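Gene expression in the uterus of mice with 1 altered copy of Ifng (ARE+/-) was compared with that of wild-type (WT) mice, across all genes counted. The comparison took the 3 uterus libraries labelled heterozygous and the 3 labelled wild type, 6 of the 18 libraries of the series. It asks what 1 altered copy of the gene does in this organ. The mice were of strain C57B6/J and were 20 to 25 weeks old, and the labels give no stage of the estrous cycle, mating or litter. WT mice carried no altered copy and ARE+/- mice carried 1. The 3 uterus libraries of ARE-/- mice, with both copies altered, entered the same fit to estimate the spread and are shown beside the result. Since 3 mice are named for the genotypes in the design text, each library was taken as another animal. The title of WT replicate 1 marks it as a backup sample, and it was kept. The labels name no Cre or tissue limit for the altered allele, and no sorting of cells, so each library holds RNA of all cell types of the sample. The sources used here do not say how many founder lines or litters the animals came from.

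Interferon gamma, the product of Ifng, is secreted mainly by T cells and natural killer cells. It binds the receptor Ifngr1-Ifngr2, which signals through the kinases Jak1 and Jak2, and the response is known to run through a palindrome called GAS in target promoters. Irf1, itself a target, binds a second motif, ISRE. The targets hold chemokines that draw T cells, the GTPases of cell-autonomous defence, and the machinery of antigen presentation. The messenger RNA of Ifng is short-lived because proteins bind AU-rich repeats near its end, and in this line an AU-rich element (ARE) of the gene was removed. In the uterus, interferon gamma from natural killer cells is best known for remodelling the arteries of early pregnancy.

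Short sequences show the elements these genes are known for. In the Ifng transcript of GENCODE M21 (GRCm38), the pentamer ATTTA occurs 6 times, all after the stop codon, and chr10:118445330-118445359 on the + strand of chromosome 10 holds 3 of them, in capitals. The bases that the altered allele lacks are not given in the sources used here.
Ifng: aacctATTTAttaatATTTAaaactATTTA
The promoter windows come from RefSeq on GRCm38.p6, each 30 bases, 5′ to 3′ along the gene, with the motif in capitals. GAS was searched as TTCNNNGAA and ISRE as 2 copies of GAAA with any 2 bases between them, on both strands, from 250 bases before to 50 bases after the first start listed for a gene. Irf1 is shown for its GAS 90 bases before the start (chr11:53769914-53769943, + strand).
Irf1: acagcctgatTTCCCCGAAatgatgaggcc
The immunity-related GTPase genes Tgtp2 (chr11:49064268-49064297, - strand), Igtp (chr11:58199507-58199536, + strand) and Irgm2 (chr11:58214898-58214927, + strand) are shown because a GAS and an ISRE stand 11 bases apart, start to start, in each.
Tgtp2: ccatTTCCAGGAAtcGAAACCGAAAcctac
Igtp: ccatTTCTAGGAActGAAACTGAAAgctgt
Irgm2: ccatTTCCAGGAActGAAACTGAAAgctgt
Gbp2 (chr3:142620594-142620623, + strand), Gbp3 (chr3:142559992-142560021, + strand), B2m (chr2:122147538-122147567, + strand), H2-T22 (chr17:36042914-36042943, - strand), Ifit3 (chr19:34583397-34583426, + strand) and Cxcl10 (chr5:92349083-92349112, - strand) are shown for an ISRE. In Gbp3, 2 ISREs overlap and the capitals join them.
Gbp2: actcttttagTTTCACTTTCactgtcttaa
Gbp3: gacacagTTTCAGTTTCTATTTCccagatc
B2m: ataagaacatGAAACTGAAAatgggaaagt
H2-T22: attggcttagTTTCACTTTCgaatccccaa
Ifit3: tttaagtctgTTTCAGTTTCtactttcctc
Cxcl10: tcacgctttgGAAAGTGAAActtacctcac
The values of all of these genes follow.

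The 6 libraries held between 36039239 and 49720354 counts, and values are given as counts per 1000000 library counts (CPM) after TMM scaling. The libraries carried markers of the uterus: Esr1, the estrogen receptor, had 429.5, 262 and 455 CPM in WT 1, 2 and 3 and 272, 278 and 237 CPM in ARE+/- 1, 2 and 3, with overlapping groups. WT 2 stood apart, at a distance of 4.84 and 4.79 on the log2 scale from WT 1 and WT 3, against 2.79 between those, over the 500 genes that differ most in each pair. ARE+/- 3 lay 3.48 and 3.53 from ARE+/- 1 and ARE+/- 2, against 2.73 between those. No pair of libraries in a group agreed within sampling noise. Hemoglobin genes took 0.00961% to 0.0234% of the counts, and ovary markers summed to 24.2 to 30.7 CPM in the WT libraries and 31.4 to 38.6 CPM in the ARE+/- libraries (0 of 9 ovary genes called).

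Of 24277 genes tested with edgeR's quasi-likelihood test (adjusted p under 0.05 after Benjamini-Hochberg over all genes), 263 were higher in ARE+/- uterus (1.08%) and 13 were lower (0.0535%). At an unadjusted p under 0.05 there were 3418. Of the rises, 258 were at least 2-fold and 144 at least 4-fold, with a median log2 fold change of 2.12. The median over all genes tested was 0.01. Small changes were less likely to be called, so the size of the called changes is in part set by the test. The falls had a median of -1.39, and 9 of 13 were at least 2-fold. Of the 263 rises, 75 belong to the gene lists described here and 188 to none. The span of 56 of the 263 overlaps that of another gene called higher, as Gm43302 overlaps Gbp6 and Gbp10. A read in both was counted for both, so the 263 are not all separate transcripts. In all 276 called genes the 3 ARE+/- libraries lay on 1 side of the 3 WT libraries. Over all genes tested, the ARE+/- libraries were all above the WT libraries in 15.7% and all below in 12.9%. ARE+/- 3 was the highest of its group in 181 of the 263 rises (68.8%, against 38.6% of all genes) and the lowest in 11 of the 13 falls.

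**Figure D1:**
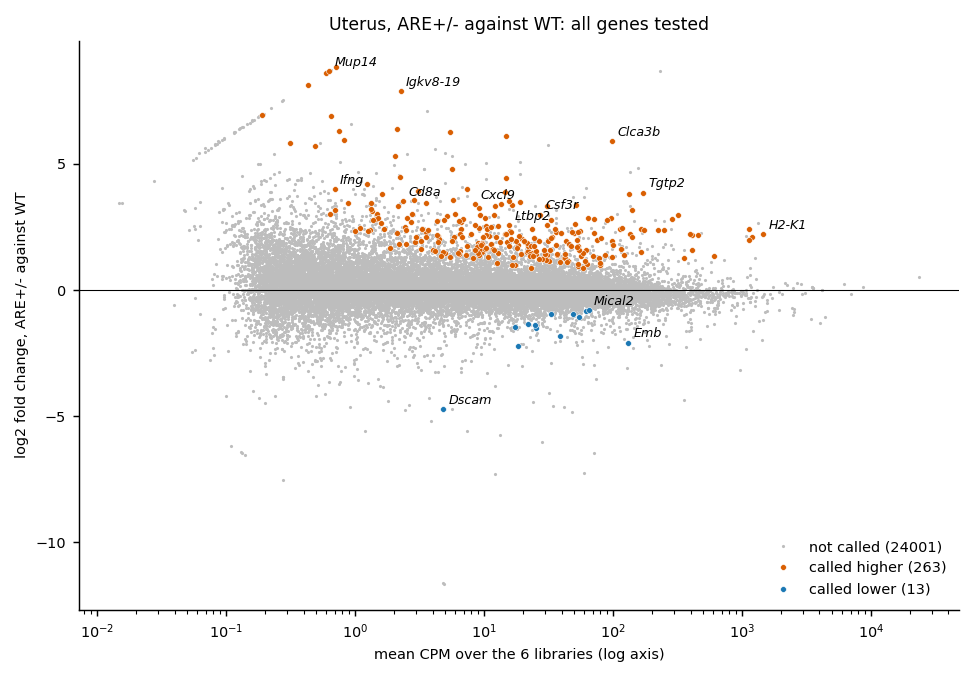
Each point is 1 gene tested, with its mean CPM over the 6 libraries on a log axis and its fitted log2 fold change, ARE+/- against WT, on the vertical axis. Orange points are the 263 genes called higher, blue points the 13 called lower and grey points the genes not called; the orange points reach far above 0 while the blue points are few.

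The number of calls rested on the WT libraries. With 1 library left out in turn, 4 genes were called without WT 1 (H2-Q6, H2-Q7, Tgtp2 and Cd8a, each at an adjusted p of 0.04998) and 0 without WT 3. Both of these leave WT 2 in a group of 2. In contrast 529 were called without WT 2 (353 higher, 176 lower). Without ARE+/- 1, 2 or 3 the numbers were 131, 124 and 122. Leaving out an ARE-/- library, which enters here only through the filter, the scaling and the estimate of spread, gave 733 without ARE-/- 1, 269 without ARE-/- 2 and 432 without ARE-/- 3. A fit of the 6 libraries alone called 922 genes, and DESeq2 called 1363. In those fits 79.6% and 78.1% of the calls were higher, and 66.7% without WT 2, against 95.3% in the fit of 9. None of the 86 called genes in the set chosen for naming changed direction in any of these fits, and each of them lost its call in at least 1. In the authors' deposited table of a likelihood-ratio test over the 3 genotypes, 514 uterus genes had an adjusted p below 1e-04, and 244 of these were called here, which is 47.5% of their genes and 88.4% of the 276.

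**Figure D2:**
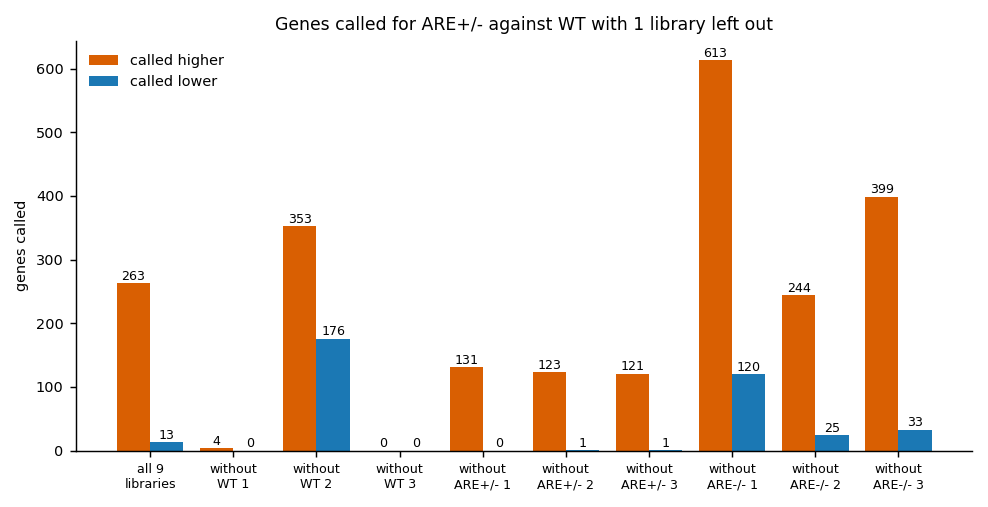
Bars give the number of genes called higher (orange) and lower (blue) for ARE+/- against WT with all 9 uterus libraries and with each library left out. The bars vanish or nearly vanish without WT 1 (4 and 0) and WT 3 (0 and 0), and the blue bar is tallest without WT 2 (176).

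Transcripts of the ligand itself were more abundant in every ARE+/- uterus. Ifng had 4, 6 and 0 counts in WT 1, 2 and 3 and 58, 36 and 70 counts in ARE+/- 1, 2 and 3, or 0.107, 0.128 and 0 and 1.098, 0.9205 and 1.93 CPM. The 3 ARE+/- libraries were all above the 3 WT libraries, and WT 3 had no count, where 3 counts would be 0.0697 CPM. Ifng rose (log2 fold change 4.01 ± 0.79, adjusted p = 0.0469, where ± is the standard error). The gene lies at chromosome 10, 118276951 to 118281797, in the annotation of the count table. Irf1, a transcription factor of the response, rose from 52.4, 50.3 and 40.6 CPM to 111, 101 and 161 CPM (1.38 ± 0.20, adjusted p = 0.0146). Of these 2, none passed without WT 1 (adjusted p from 0.0935 to 0.208) and none without WT 3 (adjusted p from 0.104 to 0.119). The call also ended without WT 2, ARE+/- 1, ARE+/- 2, ARE+/- 3 or ARE-/- 2 for Ifng (adjusted p from 0.0525 to 0.143).

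Both receptor chains lay higher in all 3 ARE+/- libraries without passing the test: Ifngr1 had 52.5, 58.2 and 56.5 CPM in WT and 92.9, 88.7 and 92.5 CPM in ARE+/- (0.71 ± 0.15, adjusted p = 0.0571), and Ifngr2 gave 0.72 ± 0.27, adjusted p = 0.26. Irf7, a factor of type I interferon genes, went from 18.1, 25.4 and 17.4 to 49.2, 55.2 and 161 CPM without a call (2.12 ± 0.45, adjusted p = 0.0593). The kinases of the receptor were not called: Jak1 had 265, 296 and 267 CPM in WT and 220.5, 204 and 166 CPM in ARE+/- (-0.49 ± 0.23, adjusted p = 0.374). Jak2 was at -0.01 ± 0.32, adjusted p = 0.997, with a sign that turned with scaling to total counts (0.051) and in 4 other fits. Socs1, the feedback inhibitor of the receptor, had 21.8, 11.3 and 20.9 CPM in WT and 15.3, 15.8 and 12.6 CPM in ARE+/- (-0.31 ± 0.35, adjusted p = 0.769), so the groups overlapped.

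**Figure D3:**
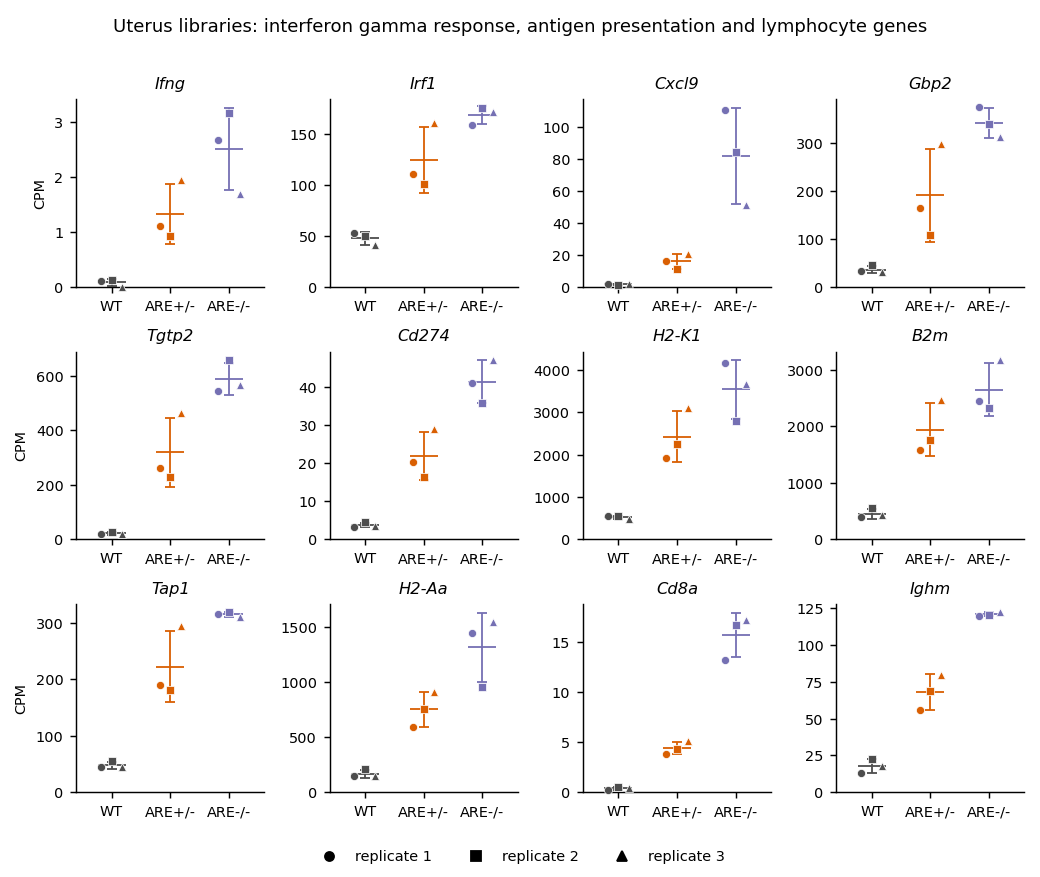
CPM in each uterus library for 12 genes, with WT in grey, ARE+/- in orange and ARE-/- in purple; the symbol gives the replicate, the horizontal line the mean and the bar ± 1 SD (n = 3), cut off at 0. In every panel the 3 ARE+/- points lie above the 3 WT points, and the triangle of ARE+/- 3 is the highest of its group in all 12.

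The guanylate-binding proteins, large GTPases that attack the vacuoles of intracellular microbes, were called higher as nearly the whole family. Of 11 members tested, 9 were called higher and 0 lower (median 2.15), and in all 11 the ARE+/- libraries lay above the WT libraries. Gbp2b had 0.241, 0 and 0.191 CPM in WT and 7.06, 6.98 and 18.4 CPM in ARE+/- (6.26 ± 0.77, adjusted p = 0.00738), a change from almost no reads to a clear signal. Gbp10 went from 4.07, 7.77 and 4.98 to 44.99, 31.7 and 91.3 CPM (3.32 ± 0.41, adjusted p = 0.00738) and Gbp6 from 12.3, 18.03 and 12.6 to 72.1, 59.7 and 132 CPM (2.62 ± 0.31, adjusted p = 0.00702). Both lie in the cluster on chromosome 5, where Gbp8 rose too (2.15 ± 0.29, adjusted p = 0.0101). Gbp2, whose promoter holds the ISRE printed above, had 32.01, 44.9 and 30.04 CPM in WT and 165, 109 and 298 CPM in ARE+/- (2.42 ± 0.35, adjusted p = 0.0127). Gbp3, printed above as well, gave 2.05 ± 0.33, adjusted p = 0.024. The members not called were Gbp11 (2.17, adjusted p = 0.0772) and Gbp9 (1.38, adjusted p = 0.108). Reads shared by near-identical members were counted for each of them, so the values of single members are uncertain. The list count was 0 without WT 1 or WT 3. Of the 6 called members named, none passed without WT 1 (adjusted p from 0.0635 to 0.165) and none without WT 3 (adjusted p from 0.0608 to 0.147). Calls were further lost without ARE+/- 1 or ARE+/- 3 for Gbp3 (adjusted p from 0.0558 to 0.0696).

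The immunity-related GTPases, smaller GTPases of the same defence, were called higher as nearly the whole family too (median 2.84). Of 9 members tested, 8 were called higher and 0 lower, and Gm4841 was not called (2.62, adjusted p = 0.0571). Tgtp2 had 18.1, 28.1 and 19.6 CPM in WT 1, 2 and 3 and 262, 230.1 and 465 CPM in ARE+/- 1, 2 and 3 (3.86 ± 0.32, adjusted p = 0.00298). Its near-identical neighbour Tgtp1 gave 3.81 ± 0.36, adjusted p = 0.00548, and the reads of these 2 cannot be told apart. In Tgtp2, the lowest ARE+/- library was ARE+/- 2 and the highest WT library was WT 2, with no overlap. Iigp1 went from 25.2, 35.9 and 23.6 to 231, 162 and 365 CPM (3.16 ± 0.34, adjusted p = 0.00653) and Ifi47 from 18.5, 21.6 and 15.5 to 76.8, 66.7 and 136 CPM (2.33 ± 0.27, adjusted p = 0.00702). Igtp (2.84 ± 0.35, adjusted p = 0.00738) and Irgm2 (2.46 ± 0.37, adjusted p = 0.0164), which share the promoter spacing shown for Tgtp2, were called too. The spans of Igtp and Irgm2 overlap on the same strand, and a read in both was counted for both. The list count was 1 without WT 1 and 0 without WT 3. Of the 6 called members named, Tgtp2 passed without WT 1 (adjusted p from 0.04998 to 0.13) and none without WT 3 (adjusted p from 0.0594 to 0.123).

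Among chemokines the rise was narrow. Cxcl9 and Cxcl10, ligands that draw T cells through the receptor Cxcr3, and Cxcr3 itself were the 3 of 16 members called higher; 0 were lower and the median was 0.73. Cxcl9 had 1.61, 1.24 and 1.596 CPM in WT and 16.01, 10.8 and 20.4 CPM in ARE+/- (3.41 ± 0.34, adjusted p = 0.00555). Cxcl10 had 0.938, 2.13 and 2.001 and 11.2, 6.801 and 17.9 CPM (2.82 ± 0.47, adjusted p = 0.0258), and Cxcr3 gave 1.35 ± 0.26, adjusted p = 0.0466. In these genes every ARE+/- library was above every WT library. The third ligand, Cxcl11, was at 0.28 (adjusted p = 0.925). Ccl5, a chemokine made by activated T cells, had 5.79, 8.28 and 5.097 CPM in WT and 11, 15.3 and 22.96 CPM in ARE+/- without a call (1.36 ± 0.33, adjusted p = 0.088). The monocyte chemokines Ccl2 (0.81), Ccl7 (-0.45) and Ccl12 (-0.13) had log2 fold changes on both sides of 0 and adjusted p of at least 0.594. The list count was 0 without WT 1 or WT 3 and 1 without ARE+/- 1 or ARE+/- 3. Of the 3, none passed without WT 1 (adjusted p from 0.0635 to 0.244) and none without WT 3 (adjusted p from 0.0608 to 0.222). A call ended as well without ARE+/- 1 or ARE+/- 3 for Cxcl10, and ARE+/- 1, ARE+/- 2, ARE+/- 3 or ARE-/- 2 for Cxcr3 (adjusted p from 0.059 to 0.163).

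Cd274, the checkpoint ligand PD-L1, was the 1 of 12 members of its list called higher, from 3.298, 4.44 and 3.55 CPM to 20.3, 16.4 and 28.9 CPM (2.54 ± 0.25, adjusted p = 0.00555). The list's median was 1.53, all 12 log2 fold changes were above 0, and 0 members were called lower. In 8 of 12 the ARE+/- libraries were all above the WT libraries, and 7 had an unadjusted p under 0.05. DESeq2 called 5 higher, and the replicate block and the fit of the 6 libraries called 2 each. Ido1, which starts tryptophan breakdown, had 0.107, 0 and 0.333 CPM in WT and 3.18, 0.716 and 3.92 CPM in ARE+/- (4.13 ± 1.00, adjusted p = 0.088). The groups did not overlap, but ARE+/- 2 was several times lower than the other 2. Ctla4, a T cell checkpoint receptor, gave 2.82 ± 0.83, adjusted p = 0.157. The call for Cd274 ended without WT 1 (adjusted p = 0.0635) and without WT 3 (adjusted p = 0.0608), and the list's count was then 0.

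MHC class I, which shows peptides to CD8 T cells, gave the most called members of any list. Of 16 members tested, 12 were called higher and 0 lower (median 2.04), and in 15 the ARE+/- libraries lay above the WT libraries. The classical heavy chain H2-K1 had 538, 540.4 and 477 CPM in WT and 1921, 2242 and 3096 CPM in ARE+/- (2.22 ± 0.25, adjusted p = 0.00702). B2m, the shared light chain, had 388, 554 and 422 and 1583, 1760.1 and 2472 CPM (2.09 ± 0.26, adjusted p = 0.00738). In H2-K1 and B2m the spread within each group was small beside the gap, and ARE+/- 3 was the highest. The nonclassical Q genes had some of the smallest p-values of the whole comparison: H2-Q6 (2.97 ± 0.24, adjusted p = 0.00298), H2-Q7 (2.84 ± 0.24, adjusted p = 0.00298), H2-Q5 (2.32 ± 0.21, adjusted p = 0.0044) and H2-Q4 (2.38 ± 0.24, adjusted p = 0.00606). H2-Q6 went from 66.2, 83.2 and 67.96 to 440.5, 544 and 714 CPM. These genes share long stretches of sequence and their reads were counted for each match, so they are not separate measurements. H2-T22, a nonclassical gene of the T region, gave 1.62 ± 0.24, adjusted p = 0.0148. Nlrc5, the transactivator of class I genes, rose as well, from 27.8, 29.9 and 32.7 to 100, 101 and 160.1 CPM (2.00 ± 0.28, adjusted p = 0.011). Mr1, which presents vitamin metabolites, was at 0.34 (adjusted p = 0.639). The list count was 2 without WT 1 and 0 without WT 3. Of the 8 called members named, H2-Q6 and H2-Q7 passed without WT 1 (adjusted p from 0.04998 to 0.122) and none without WT 3 (adjusted p from 0.0594 to 0.119).

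The interferon-induced proteasome subunits Psmb9 and Psmb8 and the peptide transporter chains Tap1 and Tap2 were the 4 of 13 members called higher; 0 were lower and the median was 0.95. In 10 of the 13 every ARE+/- library was above every WT library, and the same number had an unadjusted p under 0.05 on the higher side, with 2 on the lower side. Tap1 had 43.7, 54.8 and 44.04 CPM in WT and 190.4, 182 and 296 CPM in ARE+/- (2.23 ± 0.22, adjusted p = 0.00555). Psmb9, its neighbour on chromosome 17, had 17.3, 21.04 and 12.7 and 73.8, 73.5 and 98.9 CPM (2.27 ± 0.24, adjusted p = 0.00653), Psmb8 gave 1.80 ± 0.27, adjusted p = 0.0163 and Tap2 gave 1.08 ± 0.21, adjusted p = 0.0472. The spans of Tap1 and Psmb9 overlap, and those of Psmb8 and Tap2 each overlap Gm20496, also called higher. A read in overlapping genes was counted for each, so these are not fully separate measurements. The 2 on the lower side were the general chaperones of the endoplasmic reticulum, Canx and Calr, which lay lower in all 3 ARE+/- libraries without a call (log2 fold changes -0.57 and -0.71, adjusted p = 0.271 and 0.308). The list count was 0 without WT 1 or WT 3, 2 without ARE+/- 3 and 8 without ARE-/- 1. Of the 4, none passed without WT 1 (adjusted p from 0.0635 to 0.236) and none without WT 3 (adjusted p from 0.0608 to 0.242). Other calls lost were those without ARE+/- 3 for Psmb8, and ARE+/- 1, ARE+/- 2, ARE+/- 3 or ARE-/- 2 for Tap2 (adjusted p from 0.0524 to 0.167).

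MHC class II, which presents to CD4 T cells, rose through its chains, its chaperones and its transactivator together. Of 12 members, 9 were called higher and 0 lower (median 2.25), and the groups did not overlap in any of the 12. H2-Aa had 144, 208 and 143 CPM in WT and 590.4, 752 and 911 CPM in ARE+/- (2.19 ± 0.27, adjusted p = 0.00738). Ciita, the master transactivator, had 10.9, 17.1 and 13.4 and 52.7, 53.4 and 90.8 CPM (2.25 ± 0.36, adjusted p = 0.0198). The exchange factor H2-DMb1 (2.31 ± 0.29, adjusted p = 0.00738), the chain H2-Eb1 (2.18 ± 0.28, adjusted p = 0.00853) and the invariant chain Cd74 (2.40 ± 0.32, adjusted p = 0.0102) had fold changes close to those of H2-Aa. H2-Oa and H2-Ob, which restrain the exchange factor, were at 1.57 and 0.89 (adjusted p = 0.187 and 0.211). The list count was 0 without WT 1 or WT 3. Of the 5 named, none passed without WT 1 (adjusted p from 0.0702 to 0.14) and none without WT 3 (adjusted p from 0.0716 to 0.134). Also lost were the calls without ARE+/- 3 for Ciita (adjusted p = 0.0598).

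Genes of the type I interferon and antiviral program were higher by their values, but 1 of 20 passed the test. Ifit3, an antiviral RNA-binding protein, had 7.56, 11.1 and 7.81 CPM in WT and 29.1, 35.3 and 95.7 CPM in ARE+/- (2.59 ± 0.45, adjusted p = 0.0307). The list's median was 1.47, all 20 log2 fold changes were above 0, and in 17 of 20 the ARE+/- libraries were all above the WT libraries. Isg15 had 7.72, 12.5 and 4.88 CPM in WT and 19.6, 20.8 and 37.1 CPM in ARE+/- (1.62 ± 0.37, adjusted p = 0.0782). Ifit1 had 7.02, 16.5 and 7.05 and 25.7, 31.1 and 67.3 CPM (2.02 ± 0.43, adjusted p = 0.0604). In both, WT 2 was the highest WT library and ARE+/- 3 the highest ARE+/- library. Ifit1bl1, an Ifit relative outside the list, was among the 12 largest rises, from 0.5898, 0.341 and 0.333 to 15.1, 19.1 and 52.9 CPM (6.10 ± 0.92, adjusted p = 0.017). DESeq2 called 16 of the 20, and the count was 0 without WT 1 or WT 3, 6 without WT 2 or ARE-/- 1 and 3 without ARE-/- 3. Of these 2 called genes, none passed without WT 1 (adjusted p from 0.11 to 0.19) and none without WT 3 (adjusted p from 0.132 to 0.185).

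Both chains of CD8, the coreceptor of cytotoxic T cells, were called higher. Cd8a had 0.214, 0.534 and 0.381 CPM in WT 1, 2 and 3 and 3.805, 4.295 and 5.05 CPM in ARE+/- 1, 2 and 3 (3.52 ± 0.35, adjusted p = 0.00555), and Cd8b1, the partner chain, had 0.214, 0.256 and 0.191 and 1.55, 3.09 and 2.76 CPM (3.46 ± 0.39, adjusted p = 0.00702). These were the 2 of 14 members of the CD8 and cytotoxic list called higher (0 lower, median 0.81). All 14 log2 fold changes were above 0, and in 8 of 14 every ARE+/- library was above every WT library. At an unadjusted p under 0.05, 8 were higher, and DESeq2 called 4 higher. Among the granule genes, Gzmb and Prf1 were not called. Gzmb had 11.5, 26.4 and 9.62 CPM in WT and 27.4, 21.6 and 6.68 CPM in ARE+/- (0.23 ± 0.58, adjusted p = 0.91), and Prf1 gave 0.45 ± 0.48, adjusted p = 0.751. In Gzmb, WT 2 was far above WT 1 and WT 3 and ARE+/- 3 was below all 3 WT libraries, and its sign turned without WT 3 (-0.03) or ARE+/- 1 (-0.16). In bulk RNA, more cells of a type and more RNA per cell cannot be told apart. The CD8 list count was 1 without WT 1 and 0 without WT 3.

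Of 16 members of the T cell receptor list, 4 were called higher and 0 lower (median 0.98): Cd6, a T cell surface receptor (2.65 ± 0.37, adjusted p = 0.0115), Cd3d (2.40 ± 0.35, adjusted p = 0.0142), the adaptor Lat (1.47 ± 0.23, adjusted p = 0.0186) and the receptor alpha constant gene Trac (2.27 ± 0.36, adjusted p = 0.021). Trac went from 0.402, 0.875 and 0.905 to 2.59, 3.81 and 4.195 CPM. All 16 log2 fold changes of the list were above 0, and in 13 every ARE+/- library was above every WT library. At an unadjusted p under 0.05, 13 were higher, and DESeq2 called 10 higher. Of 13 receptor beta variable segments, outside the list, 1 was called higher, Trbv12-2, named after its values were seen, with 1 count in WT and 76 in ARE+/- (ratio 74.8, 95% counting interval 13.03 to 2993). Cd3e lay higher in all 3 ARE+/- libraries, at 3.97, 4.602 and 4.91 CPM against 1.47, 1.899 and 2.001 CPM, without a call (1.32 ± 0.29, adjusted p = 0.0652). None of 9 CD4 and regulatory T cell members were called by edgeR, 2 had an unadjusted p under 0.05 and DESeq2 called 1. All 9 were above 0 (median 0.81), 7 of them with every ARE+/- library above every WT library. Cd4 gave 1.25 ± 0.38, adjusted p = 0.164, and Foxp3, the regulatory T cell factor, had 8.58, 6.85 and 5.93 CPM in WT and 10.1, 8.36 and 8.69 CPM in ARE+/- (0.35 ± 0.25, adjusted p = 0.592). Among 10 natural killer cell members 0 were called by edgeR, 3 had an unadjusted p under 0.05 (2 higher, 1 lower) and DESeq2 called 1. Of these 10, 7 had log2 fold changes above 0 (median 0.28, from -0.90 to 2.78). Every ARE+/- library was above every WT library in 2 and below in 1. The 1 below was Il15, a cytokine that natural killer cells need (-0.90, adjusted p = 0.21), which was also the lowest log2 fold change of the list. The receptor list count was 0 without WT 1 or WT 3, 2 without ARE+/- 1 or ARE+/- 2 and 7 without ARE-/- 1. Of the 6 T cell genes called, Cd8a passed without WT 1 (adjusted p from 0.04998 to 0.137) and none without WT 3 (adjusted p from 0.0608 to 0.113). The call also ended without ARE+/- 1 for Cd3d, and ARE+/- 1 or ARE+/- 2 for Lat, and ARE+/- 2 or ARE+/- 3 for Trac (adjusted p from 0.0552 to 0.0902).

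Of 16 B and plasma cell members, 3 immunoglobulin constant genes were called higher and 0 members lower (median 1.02). Ighm, the IgM heavy chain, had 12.9, 22.7 and 17.7 CPM in WT and 55.6, 69.1 and 79.7 CPM in ARE+/- (1.94 ± 0.22, adjusted p = 0.00702). Ighg2c, the IgG2c heavy chain and the isotype that interferon gamma is known to favour, had 2.01, 3.44 and 2.07 and 19.1, 36.6 and 30.8 CPM (3.52 ± 0.42, adjusted p = 0.00738). The third was Igkc, the kappa constant gene (1.29 ± 0.24, adjusted p = 0.0357). The surface marker Ms4a1 (0.61) and Pax5, a B cell transcription factor (-0.57), had adjusted p of at least 0.811. Single variable segments were among the largest rises. Igkv8-19 (adjusted p = 0.0478) had 0.0536, 0 and 0 CPM in WT and 10.1, 0.665 and 2.76 CPM in ARE+/-, so ARE+/- 1 alone carried most of it. The 2 counts in WT against 660 in ARE+/- give a ratio of 325 (95% counting interval 89.5 to 2687). Igkv4-80 had 0, 0.0427 and 0.0953 and 3.86, 6.75 and 1.99 CPM (6.39 ± 0.81, adjusted p = 0.00758) and Igkv4-61 0.322, 0.213 and 0.619 and 8.12, 8.18 and 1.21 CPM (3.92 ± 0.77, adjusted p = 0.0469). Across the families, 5 of 78 heavy and 5 of 72 kappa variable segments were called higher and the others were not called. The B cell list count was 0 without WT 1 or WT 3. Of the 6 named, none passed without WT 1 (adjusted p from 0.0635 to 0.244) and none without WT 3 (adjusted p from 0.0608 to 0.247). Calls were further lost without WT 2, ARE+/- 1, ARE+/- 2 or ARE+/- 3 for Igkc, and WT 2, ARE+/- 1, ARE+/- 3, ARE-/- 1 or ARE-/- 2 for Igkv8-19, and WT 2, ARE+/- 1, ARE+/- 2 or ARE-/- 2 for Igkv4-61 (adjusted p from 0.0506 to 0.134).

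Myeloid genes rose in part. Of 16 macrophage and monocyte members, 2 were called higher and 0 lower (median 1.43), both of them receptors for IgG: Fcgr4 went from 2.09, 3.24 and 1.67 to 18.2, 16.01 and 40.4 CPM (3.41 ± 0.41, adjusted p = 0.00738) and Fcgr3 gave 1.42 ± 0.26, adjusted p = 0.0348. In 13 of 16 the ARE+/- libraries were all above the WT libraries, among them Lyz2, lysozyme, with 182, 251 and 169 CPM against 407, 531 and 392 CPM (1.14 ± 0.24, adjusted p = 0.0554). The scavenger receptors Mrc1 and Cd163 and the phagocytic kinase Mertk were at -0.13, 0.50 and -0.12. Of 12 dendritic cell members, 2 were called higher and 0 lower (median 1.24): Batf3, a factor of cross-presenting dendritic cells (1.59 ± 0.28, adjusted p = 0.0307), and the costimulator Cd86 (1.30 ± 0.26, adjusted p = 0.0474). Xcr1, the receptor that marks those cells, had 2.25, 2.35 and 3.33 CPM in WT and 7.38, 6.19 and 11.2 CPM in ARE+/- (1.64 ± 0.38, adjusted p = 0.08). The macrophage count was 0 without WT 1 or WT 3, 4 without WT 2, 1 without ARE+/- 1, ARE+/- 2 or ARE+/- 3, 6 without ARE-/- 1 and 7 without ARE-/- 3, and the dendritic cell count was 0 without WT 1, WT 3, ARE+/- 1, ARE+/- 2 or ARE+/- 3, 1 without WT 2 or ARE-/- 2 and 6 without ARE-/- 1. DESeq2 called 11 macrophage and 7 dendritic cell members.

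Neutrophil transcripts differed among the ARE+/- animals. Csf3r, the receptor for granulocyte colony-stimulating factor, had 4.85, 7.83 and 5.55 CPM in WT and 66.3, 54.6 and 23.2 CPM in ARE+/- (2.98 ± 0.41, adjusted p = 0.0102), with ARE+/- 3 the lowest of its group. S100a8, an abundant neutrophil protein, had 1.72, 0.683 and 0.953 and 67.2, 43.8 and 0.635 CPM, so ARE+/- 3 lay just below the lowest WT library while ARE+/- 1 and 2 were far above all 3 (5.07 ± 1.24, adjusted p = 0.0986). S100a9, its partner, had 1.45, 1.15 and 0.8099 and 117, 66.9 and 1.104 CPM, with ARE+/- 3 within the WT range and the other two above it (5.76 ± 1.26, adjusted p = 0.0723). Csf3r and the gelatinase Mmp9 (1.58 ± 0.30, adjusted p = 0.0409) were the 2 of 10 members called higher, 0 were lower and the median was 2.53. Il1b, the inflammatory cytokine, showed the same order of animals, with 1.34, 0.9603 and 1.64 CPM in WT and 58.3, 23.2 and 3.53 CPM in ARE+/- (4.43 ± 0.83, adjusted p = 0.0424), and so did Clec4e, a receptor for microbial lipids, with 0.161, 0.0854 and 0.0476 and 7.27, 3.196 and 1.52 CPM (5.33 ± 0.78, adjusted p = 0.0134). Cd300e, a receptor of monocytes, had its highest value in ARE+/- 3 instead (0.107, 0.213 and 0.0476 and 1.704, 1.07 and 4.25 CPM, 4.20 ± 0.70, adjusted p = 0.0275). Of the 10 neutrophil members, every ARE+/- library was above every WT library in 4 and below in 1. At an unadjusted p under 0.05, 7 were higher and 1 lower, and the lowest log2 fold change was -2.27. The neutrophil list count was 0 without WT 1 or WT 3, 1 without ARE+/- 1 or ARE+/- 2 and 4 without ARE+/- 3, since S100a8 and S100a9 passed without ARE+/- 3 (adjusted p = 0.00256 and 0.000639). Of the 9 called myeloid genes, none passed without WT 1 (adjusted p from 0.0675 to 0.244) and none without WT 3 (adjusted p from 0.0608 to 0.208). A call ended as well without ARE+/- 1, ARE+/- 2 or ARE+/- 3 for Fcgr3, Batf3 and Mmp9, and WT 2, ARE+/- 1, ARE+/- 2, ARE+/- 3 or ARE-/- 2 for Cd86, and WT 2, ARE+/- 1, ARE+/- 2, ARE-/- 1, ARE-/- 2 or ARE-/- 3 for Il1b, and ARE+/- 1 or ARE+/- 3 for Cd300e (adjusted p from 0.0562 to 0.152).

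Mast cell proteases went the other way without passing. Cma1, mast cell chymase, had 5.201, 7.597 and 4.88 CPM in WT and 0.909, 0.358 and 0.662 CPM in ARE+/- (-3.18 ± 0.94, adjusted p = 0.156). All 7 members tested had log2 fold changes below 0 (median -2.24), 5 of 7 with every ARE+/- library below every WT library. None were called by edgeR, 4 had an unadjusted p under 0.05 and DESeq2 called 2 lower. So did edgeR without ARE-/- 3 and in the fit of the 6 libraries. The summed level was 128 to 315 CPM in the WT libraries and 67.8 to 136 CPM in the ARE+/- libraries.

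Of 12 complement members, 2 were called higher and 0 lower (median 1.49): C2, a protease of the classical pathway (2.31 ± 0.39, adjusted p = 0.0273), and C1qb, a chain of its recognition molecule (1.51 ± 0.30, adjusted p = 0.0466). C4b had 104, 126 and 106 CPM in WT and 197, 214 and 456 CPM in ARE+/-, above all WT libraries in each but without a call (1.37 ± 0.42, adjusted p = 0.17), and ARE+/- 3 was far above the other 2. Of 9 Serpina3 protease inhibitors, Serpina3g (2.30 ± 0.37, adjusted p = 0.0231) and Serpina3f (3.57 ± 0.70, adjusted p = 0.0472) were called higher and 0 lower (median 2.37). Serpina3f went from 0.483, 0.7896 and 0.0476 to 4.75, 2.97 and 8.22 CPM. The complement count was 0 without WT 1, WT 3 or ARE+/- 3, 1 without ARE+/- 1 or ARE+/- 2, 4 without ARE-/- 2 and 5 without ARE-/- 3, and the Serpina3 count was 0 without WT 1, WT 3 or ARE+/- 3 and 1 without ARE+/- 1, ARE+/- 2, ARE-/- 1, ARE-/- 2 or ARE-/- 3. Of the 4 genes, none passed without WT 1 (adjusted p from 0.14 to 0.244) and none without WT 3 (adjusted p from 0.0874 to 0.247). Other calls lost were those without ARE+/- 3 for C2 and Serpina3g, and ARE+/- 1, ARE+/- 2 or ARE+/- 3 for C1qb, and ARE+/- 1, ARE+/- 2, ARE+/- 3, ARE-/- 1, ARE-/- 2 or ARE-/- 3 for Serpina3f (adjusted p from 0.0503 to 0.155).

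**Figure D4:**
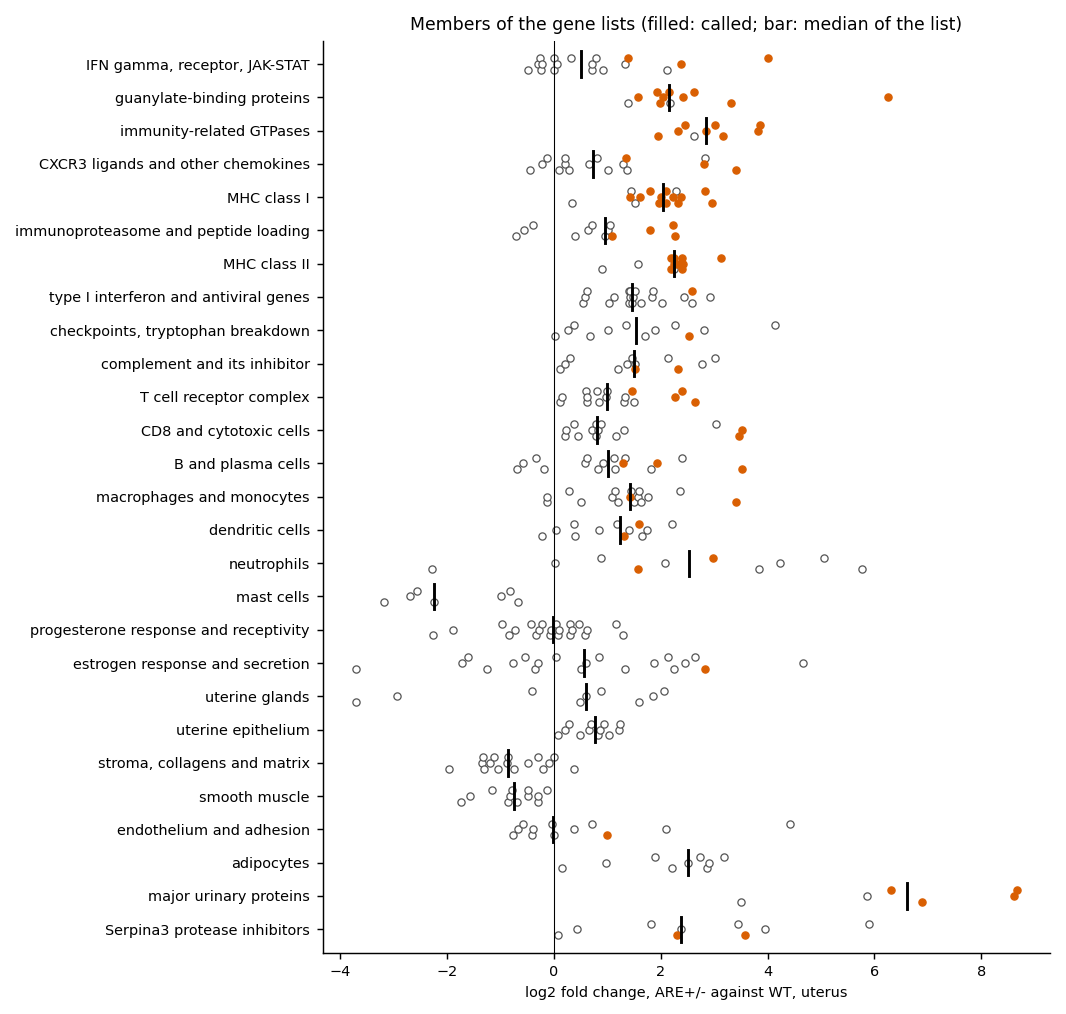
Each circle is 1 tested member of a gene list, placed at its log2 fold change for ARE+/- against WT; filled circles were called and the black bar is the median of the list. The guanylate-binding proteins (9 of 11), immunity-related GTPases (8 of 9) and both MHC classes (12 of 16 and 9 of 12) are mostly filled to the right of 0, while the stroma, smooth muscle and mast cell lists lie to the left with no filled circle.

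Genes of the uterus's own program were mostly not called, and the WT libraries differed among themselves in several. Pgr, the progesterone receptor, had 348, 121 and 404 CPM in WT and 188, 177 and 123 CPM in ARE+/- (-0.84 ± 0.63, adjusted p = 0.613). WT 2 was the lowest of the 6 libraries. Of 22 progesterone response and receptivity members, 0 were called by edgeR or DESeq2 and 2 had an unadjusted p under 0.05, with a median of -0.01. The count was 1 without WT 2 or ARE-/- 1 and 1 in the fit of the 6 libraries. Ihh, the epithelial signal of receptivity, had 7.99, 46.7 and 9.099 CPM in WT and 38.6, 37.4 and 12.2 CPM in ARE+/- (0.47 ± 0.75, adjusted p = 0.844). WT 2 was the highest of the 6 and ARE+/- 3 was near WT 1 and WT 3. Lif, the cytokine needed for implantation, had 7.21, 14.1 and 6.69 and 3.63, 2.33 and 14.8 CPM (-0.43 ± 0.65, adjusted p = 0.833), with ARE+/- 3 the highest of its group. Areg, an epithelial growth factor, was above 1 CPM in WT 2 alone (0.161, 2.86 and 0 and 0.379, 0.153 and 0.276 CPM), and its sign turned without that library (1.74).

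Of 20 estrogen response and secretion members, 1 was called higher and 0 lower (median 0.55). It was Gabrp, a chloride channel subunit of epithelia, which went from 18.7, 13.4 and 20.7 to 87.8, 103 and 186 CPM (2.83 ± 0.47, adjusted p = 0.0275). Of the 20, 12 had log2 fold changes above 0, and the range was -3.71 to 4.66. At an unadjusted p under 0.05, 4 were higher and 1 lower. Ltf, lactotransferrin, had 518, 84.7 and 505 CPM in WT and 1766, 1832 and 3319.5 CPM in ARE+/- (2.64 ± 0.72, adjusted p = 0.128), so the groups did not overlap, but WT 2 was several times below WT 1 and WT 3. DESeq2 called Ltf higher (adjusted p = 0.00165). Clca3b, a secreted regulator of chloride conductance and 1 of the 12 largest rises, had 0.563, 2.497 and 6.57 CPM in WT and 269.9, 217 and 91.8 CPM in ARE+/- (5.90 ± 1.09, adjusted p = 0.0424). Aldh1a3, which makes retinoic acid, had 0.858, 0.448 and 1.31 and 20.2, 14.9 and 7.04 CPM (4.01 ± 0.50, adjusted p = 0.00738). Vcam1, the adhesion molecule that captures lymphocytes, had 11.4, 13.6 and 10.2 and 22.9, 24.98 and 22.2 CPM (0.99 ± 0.17, adjusted p = 0.0292). It was the 1 of 12 endothelial members called higher, with 0 lower and a median of -0.01. Of the 12, 6 were above 0, and every ARE+/- library was above every WT library in 3 and below in 4. At an unadjusted p under 0.05, 3 endothelial members were higher and 4 lower, and DESeq2 called 3 higher and 0 lower. The estrogen list count was 0 without WT 1, WT 2, WT 3, ARE+/- 2 or ARE+/- 3, where 1 member was lower without WT 2, and the endothelial count was 0 without WT 1, WT 3, ARE+/- 1, ARE+/- 2 or ARE+/- 3. Of the 4 called, none passed without WT 1 (adjusted p from 0.0702 to 0.189) and none without WT 3 (adjusted p from 0.0608 to 0.185). Also lost were the calls without WT 2, ARE+/- 2 or ARE+/- 3 for Gabrp, and ARE+/- 1, ARE+/- 2 or ARE+/- 3 for Vcam1, and WT 2, ARE+/- 1, ARE+/- 2, ARE+/- 3 or ARE-/- 2 for Clca3b (adjusted p from 0.0525 to 0.12).

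**Figure D5:**
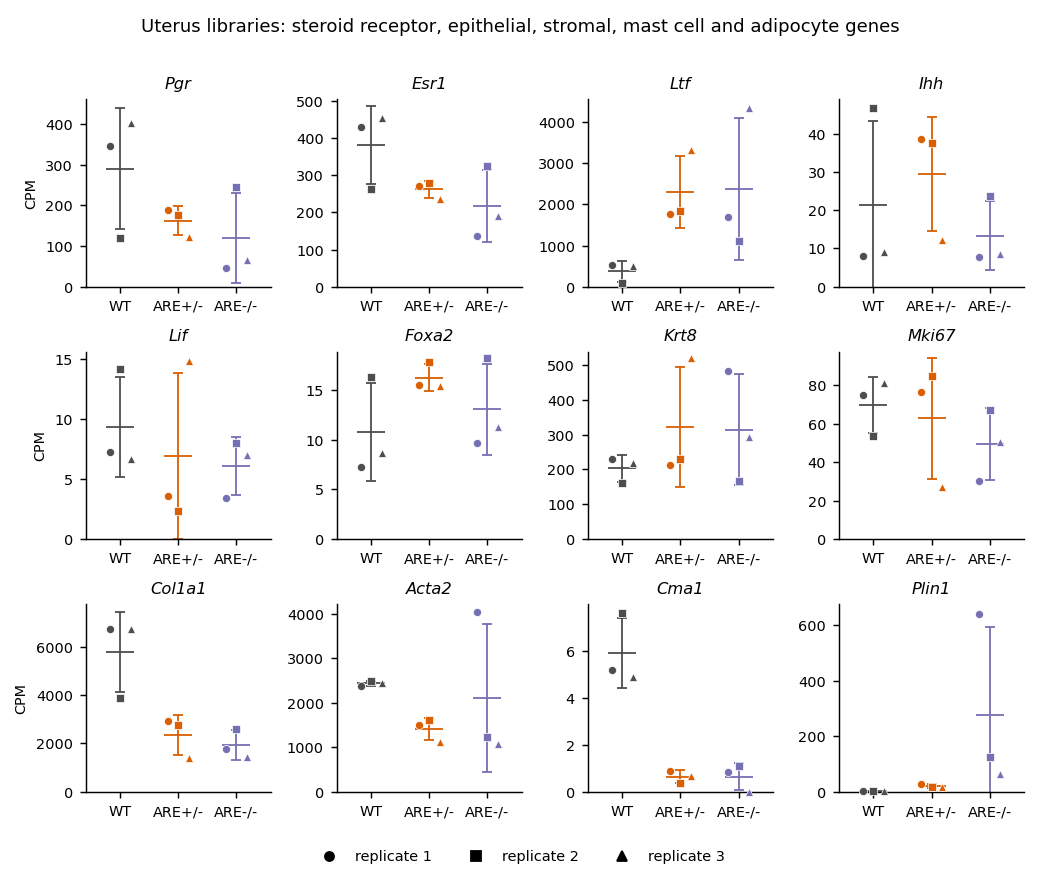
CPM in each uterus library for 12 genes of steroid response, epithelium, stroma, muscle, mast cells and adipocytes, with WT in grey, ARE+/- in orange and ARE-/- in purple; the symbol gives the replicate, the line the mean and the bar ± 1 SD (n = 3), cut off at 0. Square WT 2 sits apart from the other WT points for Pgr, Esr1, Ltf, Ihh, Lif and Foxa2, and in Col1a1, Acta2 and Cma1 all 3 ARE+/- points lie below all 3 WT points.

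The tissue compartments shifted in value without calls in the fit of 9 libraries. All 12 epithelial members had log2 fold changes above 0 (median 0.76), 0 were called by edgeR or DESeq2 and 2 had an unadjusted p under 0.05. The edgeR fit of the 6 libraries called 1 epithelial member higher. Krt8, a simple epithelial keratin, had 231, 159.9 and 218 CPM in WT and 212, 231 and 519 CPM in ARE+/- (0.66 ± 0.43, adjusted p = 0.549), where only ARE+/- 3 was clearly high. Of 9 gland members, with log2 fold changes from -3.71 to 2.05, 0 were called by edgeR, 2 had an unadjusted p under 0.05 and DESeq2 called 2. The gland count was 1 without ARE+/- 1, 2 without ARE-/- 1 and 2 in the fit of the 6 libraries. Foxa2, the gland factor, had 7.21, 16.3 and 8.67 and 15.5, 17.7 and 15.3 CPM (0.59 ± 0.34, adjusted p = 0.491). In the stroma list 15 of 16 members were below 0 (median -0.87), 8 with every ARE+/- library below every WT library. None were called by edgeR, 8 had an unadjusted p under 0.05 and DESeq2 called 6 lower. The stroma count was 1 lower without WT 2, ARE-/- 1 or ARE-/- 2 and 2 lower in the fit of the 6 libraries. Col1a1, the main fibrillar collagen, had 6743, 3887 and 6747 CPM in WT and 2913, 2744 and 1391 CPM in ARE+/- (-1.30 ± 0.36, adjusted p = 0.138), with WT 2 the lowest WT library. All 12 smooth muscle members were below 0 (median -0.74), 10 without overlap, and 0 were called by edgeR or DESeq2 with 2 at an unadjusted p under 0.05. Acta2, smooth muscle actin, had 2384, 2496 and 2452 and 1495, 1607 and 1129 CPM (-0.79 ± 0.45, adjusted p = 0.479) and passed without ARE-/- 1 (adjusted p = 0.0337) and in the fit of the 6 libraries (adjusted p = 0.0374). That ARE-/- library was itself high, at 4037 CPM. The smooth muscle count was then 5 and 6 of 12, and 1 without WT 2. Of 20 proliferation members 0 were called by edgeR or DESeq2 and 0 had an unadjusted p under 0.05. Mki67 had 75.2, 53.5 and 81.2 CPM in WT and 76.6, 84.9 and 26.9 CPM in ARE+/- (-0.16 ± 0.42, adjusted p = 0.915), and its sign turned without the low ARE+/- 3 (0.21). The summed collagen and matrix level was 24804 to 37414 CPM in the WT libraries and 11352 to 19840.2 CPM in the ARE+/- libraries, and that of smooth muscle 9779.8 to 10548 CPM in the WT libraries and 5890.5 to 6544 CPM in the ARE+/- libraries. Whether these shares moved the CPM of the immune genes was not tested.

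Markers of other tissues were checked beside the immune rises. Adipocyte markers summed to 69.3 to 118 CPM in the WT libraries and 293 to 484 CPM in the ARE+/- libraries. Plin1, which coats lipid droplets, had 3.06, 4.89 and 3.19 CPM in WT and 28.03, 16.98 and 18.3 CPM in ARE+/- (2.51 ± 0.75, adjusted p = 0.168). All 9 tested members were above 0 (median 2.51), 7 without overlap, 0 were called by edgeR, 7 had an unadjusted p under 0.05 and DESeq2 called 7. The count was 6 without ARE-/- 1 and 6 in the fit of the 6 libraries. Every ARE+/- library was above every WT library in this sum, and its part in the rises was not tested. Red cell markers were at 96 to 219.8 CPM in the WT libraries and 119 to 223 CPM in the ARE+/- libraries, 0 of 6 called by edgeR or DESeq2 and 0 with an unadjusted p under 0.05. Hba-a2 had 52.7, 27.04 and 56.1 and 62.3, 30.6 and 34.5 CPM, and its sign turned in 4 of the fits with 1 library left out (from -0.48 to 0.09). Of the ovary list, 9 of 14 members could be tested, 0 were called by edgeR or DESeq2 and 0 had an unadjusted p under 0.05. Inha, a granulosa cell hormone subunit, had 6.17, 8.26 and 6.24 and 12.9, 12.4 and 7.56 CPM (0.67 ± 0.94, adjusted p = 0.82), and Cyp19a1, Fshr, Nr5a1, Zp3 and Oosp1 did not pass the filter on low counts. Of 8 oviduct and mesothelium members 0 were called by edgeR, 1 had an unadjusted p under 0.05 and DESeq2 called 1 lower. So did edgeR without ARE-/- 1 and in the fit of the 6 libraries. Of 7 skeletal muscle members 0 were called by edgeR or DESeq2 and 0 had an unadjusted p under 0.05.

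The major urinary proteins, lipid-binding proteins made chiefly by the liver and known from urine, were among the largest fold changes at very low levels. Mup14 had 0 counts in the 3 WT libraries together and 168 in the ARE+/- libraries, which is at least 55.1-fold higher if 3 counts are put in place of the WT sum. Mup13 had 0 and 160 counts, at least 52.5-fold higher. Mup2 had 1 count in WT and 174 in ARE+/-, a ratio of 171 (95% counting interval 30.3 to 6802), and Mup10 had 2 and 199, a ratio of 97.9 (26.8 to 814). In CPM, Mup14 had 1.74, 0.972 and 1.05 in ARE+/- 1, 2 and 3, so all 3 animals carried it. Of the 6 members of the list tested, 4 were called higher and 0 lower, and Mup1, Mup5, Mup17 and Mup20 had 0 counts in all 6 libraries. The list holds part of the family: by symbol 9 Mup genes were tested and 5 called higher. The fifth, Mup22, named after its values were seen, had 3 counts in WT and 218 in ARE+/-, a ratio of 71.5 (24.1 to 349). Mates of a pair were counted singly, so 1 fragment often gives 2 counts (of the counts from 1 to 20, 68.1% to 72.1% were even in the WT and ARE+/- libraries), and these intervals and the bound from 3 counts are too narrow for that. The genes are near-identical copies and reads were counted for each match, so the members are not separate measurements. This 6-member count was 0 without WT 1 or WT 3. Of the 4, none passed without WT 1 (adjusted p = 0.0635 for each) and none without WT 3 (adjusted p = 0.0608 for each).

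Among the other largest rises stood AA467197, with 0.268, 0.598 and 0.286 CPM in WT and 10.7, 6.01 and 16.2 CPM in ARE+/- (4.81 ± 0.81, adjusted p = 0.0275), and Mir147 (4.48 ± 0.86, adjusted p = 0.0453). The Mir147 locus (chromosome 2, 122482723 to 122482801) lies within AA467197 (122479770 to 122483111, same strand), and a read in both was counted for both, so these are 1 signal and not a measurement of the mature microRNA. Of the 2, none passed without WT 1 (adjusted p from 0.175 to 0.22) and none without WT 3 (adjusted p from 0.176 to 0.237). The call also ended without ARE+/- 1 or ARE+/- 3 for AA467197, and WT 2, ARE+/- 1, ARE+/- 2, ARE+/- 3 or ARE-/- 2 for Mir147 (adjusted p from 0.0507 to 0.126). Of 10 tested genes around Ifng on chromosome 10, Ifng was the only 1 called, 0 were lower and the median was 0.17. On chromosome 17, which carries the MHC, 38 of 1200 tested genes were called (3.17%), beside 1.14% over all chromosomes. The 38 include genes with shared reads, such as the overlapping Tap1 and Psmb9 and the H2-Q genes, so they are not all separate measurements.

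The 13 genes called lower included none of the gene lists. Dscam, a neuronal adhesion molecule, had 12.7, 1.71 and 13.4 CPM in WT and 0.454, 0.332 and 0.248 CPM in ARE+/- (-4.72 ± 0.88, adjusted p = 0.0389). WT 2 was far below WT 1 and WT 3 there, as it was for Emb, embigin, an adhesion glycoprotein (266, 93.2 and 275 and 53.2, 59.7 and 37.5 CPM, -2.08 ± 0.39, adjusted p = 0.0409). Kcne4, an accessory subunit of potassium channels, had 75.8, 45.7 and 60.4 and 15.5, 22.6 and 14.02 CPM (-1.80 ± 0.36, adjusted p = 0.0478), Kcng1, a modulatory potassium channel subunit, gave -1.45 ± 0.28, adjusted p = 0.0466 and Dpp6, an auxiliary subunit of A-type potassium channels, gave -1.39 ± 0.26, adjusted p = 0.0424. With scaling to total counts the calls of Kcne4, Kcng1, Dpp6, Fam43a, P4ha2, Numbl and Mical2 ended (adjusted p from 0.0616 to 0.0897). F13a1, the clot-crosslinking factor carried by resident macrophages, had 33.1, 28.2 and 33.7 CPM in WT and 10.5, 12.02 and 15.01 CPM in ARE+/- (-1.34 ± 0.26, adjusted p = 0.0456). Ctps, CTP synthase, fell from 81.7, 63.7 and 75.7 to 34.8, 40.7 and 31.2 CPM (-1.05 ± 0.17, adjusted p = 0.0258). The other falls were those of Medag (-1.51 ± 0.27, adjusted p = 0.0326), Fam43a (-0.96 ± 0.17, adjusted p = 0.0333), P4ha2, a collagen prolyl hydroxylase (-0.94 ± 0.17, adjusted p = 0.0347), Numbl (-0.82 ± 0.16, adjusted p = 0.0424) and Mical2, an actin-oxidising enzyme (-0.80 ± 0.15, adjusted p = 0.0446). The predicted gene Gm17509, named after its values were seen, completes the 13 (-2.23 ± 0.41, adjusted p = 0.0375), and since its span (chromosome 13, 117355237 to 117357611, - strand) overlaps the start of Emb (117356808 to 117410951, + strand) and strand was not used, reads of the 2 cannot be told apart there. The number of falls was 0 without WT 1, WT 3 or ARE+/- 1, 1 without ARE+/- 2 or 3, 6 with scaling to total counts, 176 without WT 2, and 120, 25 and 33 without ARE-/- 1, 2 and 3. Of the 12 falls other than Gm17509, none passed without WT 1 (adjusted p from 0.135 to 0.226) and none without WT 3 (adjusted p from 0.119 to 0.229). None of the 12 passed without ARE+/- 1 or ARE+/- 3, and only Kcng1 passed without ARE+/- 2. Without WT 2 the calls of Medag, Fam43a and Kcng1 ended, without ARE-/- 1 that of Emb, without ARE-/- 3 that of Kcne4, and without ARE-/- 2 those of Dscam, F13a1, Numbl, Mical2, Emb and Kcng1 (adjusted p from 0.0502 to 0.181 over these cases).

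The homozygous animals gave a second point on the same genes. For ARE-/- against ARE+/-, 0 of 24277 genes were called by edgeR (0%), 1182 had an unadjusted p under 0.05, and DESeq2 called 186 (174 higher, 12 lower). With edgeR, 1 gene was called without ARE-/- 1 (Cyp2e1) and 1 without the filter on low counts (Cxcl9), both named after their values were seen. This comparison shares the ARE+/- libraries with the comparison above, so the values are given side by side only. Cxcl9 had 110.4, 84.1 and 50.8 CPM in ARE-/- 1, 2 and 3, beyond the 16.01, 10.8 and 20.4 CPM of ARE+/- (ARE-/- against ARE+/-, log2 fold change 2.38 ± 0.32, adjusted p = 0.468). Cd8a had 13.2, 16.7 and 17.2 CPM (1.84 ± 0.32, adjusted p = 0.468) and Ighm 119.7, 121 and 122 CPM (0.83 ± 0.22, adjusted p = 0.591), each again above every ARE+/- library. For Tap1 the ARE-/- values were 317, 319 and 311 CPM (0.50 ± 0.21, adjusted p = 0.986) and for Irf1 159, 176 and 172 CPM (0.44 ± 0.20, adjusted p = 0.986). In Tap1 all ARE-/- libraries were also above all ARE+/- libraries, whereas in Irf1 ARE-/- 1 lay just below ARE+/- 3. Ifit1, at 25.9, 27.8 and 28.7 CPM (-0.59 ± 0.41, adjusted p = 0.986), and Csf3r, at 37.8, 32.1 and 58.4 CPM (-0.17 ± 0.38, adjusted p = 0.989), stayed within the ARE+/- range. Plin1 reached 641, 125 and 64.02 CPM (3.71 ± 0.78, adjusted p = 0.468) and Hba-a2 2101, 347 and 223 CPM (4.39 ± 0.85, adjusted p = 0.468), so fat and blood transcripts were highest in ARE-/- 1, and their part in this comparison was not tested. With 0 calls, neither a further step nor equality between the genotypes is shown.

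The effect of the ARE+/- genotype was set against that in the ovary with an interaction test over all 18 libraries. Of 26682 genes, 1 differed (0.00375%): Ltbp2, a latent TGF-beta binding protein of the matrix. On the common scale of that fit, it had 5.56, 4.46 and 4.33 CPM in uterus WT 1, 2 and 3 and 27.1, 32.2 and 25.5 CPM in uterus ARE+/- 1, 2 and 3 (log2 fold change 2.56 ± 0.27), all 3 ARE+/- libraries several times above all WT libraries. In the ovary its values were 29.1, 31.9 and 33.0 CPM in WT and 23.8, 33.4 and 21.3 CPM in ARE+/- 1, 2 and 4 (log2 fold change -0.26 ± 0.25), and the groups overlapped. The difference of the 2 effects was -2.82 ± 0.36 (adjusted p = 0.0193). The span of Ltbp2 overlaps that of D030025P21Rik on the other strand, also called higher in ARE+/- uterus. Strand was not used and a read in both was counted for both, so these values may not be of Ltbp2 alone. At an unadjusted p under 0.05 there were 2380 genes, and DESeq2 called 197. The interaction count was 0 without uterus WT 1, WT 3, ARE+/- 1 or ARE+/- 2, without any 1 ovary WT library, and without ovary ARE+/- 1 or ARE+/- 4, and it was 81 without uterus WT 2. It was 8 without uterus ARE+/- 3, 13, 2 and 15 without uterus ARE-/- 1, 2 and 3, and 4 without ovary ARE+/- 2. In the fit of the 9 uterus libraries Ltbp2 rose too (2.57 ± 0.27, adjusted p = 0.00633). That call ended without WT 1 (adjusted p = 0.0635) and without WT 3 (adjusted p = 0.0608). For the other rises above, the difference between tissues was not called in the main fit of 18 libraries. It was -1.28 ± 1.18, adjusted p = 0.796 for Ifng, 1.70 ± 0.47, adjusted p = 0.342 for Cxcl9, -0.86 ± 0.44, adjusted p = 0.592 for Cd8a, -0.10 ± 0.25, adjusted p = 0.951 for H2-K1 and -0.85 ± 0.35, adjusted p = 0.517 for Tgtp2. Without the filter on low counts, edgeR called the difference for Aldh1a3 (-3.72, adjusted p = 0.0194). Without ovary ARE+/- 2 it called that for D030025P21Rik (-4.04, adjusted p = 0.0153).

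The promoters of the called genes were searched for the 2 motifs printed above. Of 262 symbols called higher, 169 had a promoter in the table, and 52 of these (30.8%) held a GAS or an ISRE, against 9.84% of the 13872 tested genes with a promoter and 11.4% of all 27025. A GAS was in 17.2%, against 7.12% of tested genes, and ISRE in 18.9%, against 3.16%. Among the 11 called falls with a promoter, 0 held either. Of the rises outside the lists, 119 had a promoter and 22.7% of these held a motif. All 5 guanylate-binding protein promoters in the table held an ISRE, and 5 of 6 immunity-related GTPase promoters did, as did 10 of 16 type I interferon promoters. The spacing of 11 bases seen in Tgtp2, Igtp and Irgm2 was also found in Tgtp1 and Gm12185. For MHC class II, 1 of 9 promoters held an ISRE and 1 of 9 a GAS. Neighbouring family members share promoter sequence through duplication, so these matches are not independent, and a match is not a site of binding.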

How the data were processed

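Total RNA of uterus was sequenced in paired-end libraries, per the labels' protocols. The authors counted reads per gene with featureCounts 2.0.4 on GENCODE M32, per the file headers, with options that count a read for every place and gene it matches, count mates singly and use no strand, and they deposited whole-number counts. Alignment used STAR on mm10, per the submitters' processing notes, whereas GENCODE M32 annotates a later build, so gene coordinates are those of the count table. The authors also deposited adjusted p-values of a likelihood-ratio test across genotypes, for which the submitters' processing notes name DESeq2.

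Groups came from the genotype labels. The 9 uterus libraries were fitted together with edgeR 4.0.16 in R 4.3.3 (quasi-likelihood, robust, TMM scaling, filterByExpr with a minimum count of 10), with 1 mean per genotype and Benjamini-Hochberg adjustment at 0.05. ARE+/- was contrasted with WT. The scripts were tested on simulated data with known changes in 200 genes. There edgeR recovered 6% of the 2-fold and 65% of the 4-fold changes, and 7.79% of its calls fell on unchanged genes. DESeq2 recovered 25% and 84%, and 28.8% of its calls fell on unchanged genes. The simulated counts were drawn independently around each gene's mean over the 9 libraries, and no library was set apart as WT 2 is. These shares therefore need not hold for the real comparison. Ratios for genes with up to 3 WT counts have 95% exact counting intervals, and a count of 0 was set to 3 counts over the group; both cover counting error only. A symbol was found for 52029 of 57010 gene identifiers. The genes named are Ifng, a fixed set of pathway and tissue genes, the 12 largest rises and falls with a mean of at least 1 CPM and a symbol that is neither a Gm number nor a Rik clone, the 6 smallest p-values, and up to 4 called members of each list. Members and lists were chosen with earlier results of these data known. Alternatives were RLE scaling, total counts, no filter, a mean of at least 1 CPM, counts divided by 2, DESeq2 1.42.0, no robust estimation, a replicate block, the 6 libraries alone, and each library left out. Examples beyond that rule were chosen after their values were seen: Ltbp2, the genes whose sequences are printed, and members of a list named to show its range. Some genes of that set are not reported here.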

Additional observations from a re-analysis of the deposited data

Results flagged for a closer look

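Ltbp2 was the 1 gene whose ARE+/- effect differed between the tissues by the interaction test, with a difference of -2.82 on the log2 scale (ovary minus uterus, adjusted p = 0.0193 by edgeR's quasi-likelihood test). In the uterus all 3 ARE+/- libraries were above all 3 WT libraries, and in the ovary the groups overlapped.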

How the results depend on the processing

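Counts of genes called for ARE+/- against WT (276, of which 263 higher and 13 lower) were 415 without the filter on low counts (34 lower), 1363 with DESeq2 (1065 higher, 298 lower) and 922 with the 6 libraries alone (734 higher, 188 lower), and 6 were lower with scaling to total counts. Leaving out 1 library gave 0 to 733 calls (0 to 613 higher, 0 to 176 lower). The calls shared with the 276 were 276 for DESeq2, 270 for the 6 libraries alone and 0 without WT replicate 3. RLE scaling, a mean of at least 1 CPM, counts divided by 2 and no robust estimation gave 265 to 286 calls. For ARE-/- against ARE+/- the count of 0 became 1 without the filter, 186 with DESeq2 (174 higher, 12 lower) and 0 to 1 with 1 library left out. The tissue difference (1 call) became 3 without the filter, 197 with DESeq2 (86 higher, 111 lower), and 0 to 81 with 1 library left out (0 to 48 higher, 0 to 33 lower). The replicate numbers were not shown to pair the WT and ARE+/- libraries: deviations from the group means correlated at -0.03, 0.06 and 0.09 for the same numbers, and a replicate block gave 302 calls, 220 of them shared. Under that block 16 of the 86 called genes chosen for naming lost their call, and 3 of the 40 not called gained one. Of the 126 genes in the set chosen for naming, 86 were called, and each of these lost its call under at least 1 alternative with none changing sign. Of the 40 not called, 5 changed sign: Gzmb (-0.03 without WT replicate 3 and -0.16 without ARE+/- replicate 1; range with 1 library left out -0.16 to 0.82), Areg (1.74 without WT replicate 2; -2.47 to 1.74), Mki67 (0.21 without ARE+/- replicate 3; -0.44 to 0.21), Hba-a2 (0.03, 0.089, 0.095 and 0.04 without WT replicates 1 and 3 and ARE+/- replicates 2 and 3; -0.48 to 0.095) and Jak2 (0.051 with total counts, 0.0049 with a mean of at least 1 CPM, 0.044 with the replicate block, 0.03 without ARE+/- replicate 1; -0.13 to 0.21). The cause of these differences was not tested. With 3 libraries a group, a difference that missed the threshold is not shown to be absent.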
